A study of Mus musculus with 46 samples.

Results

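The mouse microRNAs (miRNAs) mmu-miR-15a-5p, mmu-miR-15b-5p, mmu-miR-16-5p, mmu-miR-195a-5p and mmu-miR-322-5p, written below without the mouse prefix, carry the same seed, the bases 2 to 8 with which a miRNA pairs to its target mRNAs. These 5 miRNAs were picked by name, for their shared seed, from the 1881 mouse miRNAs on the array. All 5 were among the 815 miRNAs that were detected on at least 5 arrays and were therefore tested. miR-322-5p was detected on 43 of the 45 arrays used, and the other 4 members on all 45.

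The family is processed from hairpins in several genomic clusters, and its members can act on overlapping sets of mRNAs because target recognition rests on the seed. It is known for restraining the cell cycle, through targets such as cyclins, and for limiting cell survival through BCL2. In the heart, miR-195a and its relatives are known for the withdrawal of cardiomyocytes from the cell cycle after birth, miR-16 and miR-15b are abundant in blood cells, and miR-322, the mouse counterpart of human miR-424, is known from vascular and muscle cells.

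The study followed miRNA levels in degrading tissue. Heart, liver and brain of male C57BL6 mice of an Il1a knock-out strain were taken just after death and cut into pieces, and the pieces lay in the cold (4 °C) or at RT (room temperature) until 0, 1, 3, 6, 12, 24, 48 or 96 h had passed. All groups carry this Il1a background, the age of the mice is not given in the labels or methods, and no group was treated otherwise. One 1-colour Agilent miRNA array was hybridised per piece. The groups used here were heart at 4 °C (7 arrays, 1 to 96 h), heart at RT (8 arrays, 0 to 96 h), liver at 4 °C (6 arrays, 0, 1, 3, 12, 24 and 48 h), liver at RT (8 arrays), brain at 4 °C (8 arrays) and brain at RT (8 arrays). Liver at 6 and 96 h of 4 °C was not analysed here. Each group filled 1 slide and came from pieces of 1 organ, so that animal, slide and temperature cannot be told apart within a tissue, and p-values measure only the spread between pieces. By the methods, the 3 organs profiled at a temperature came from a single mouse, so that the slides of different tissues at that temperature share an animal.

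The sequences of the 5 members are shown to display the shared seed, printed in capitals, and the differing 3′ part. They are mature sequences of RefSeq on GRCm38.p6, written 5′ to 3′.
mmu-miR-15a-5p: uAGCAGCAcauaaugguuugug
mmu-miR-15b-5p: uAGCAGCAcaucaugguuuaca
mmu-miR-16-5p: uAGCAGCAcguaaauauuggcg
mmu-miR-195a-5p: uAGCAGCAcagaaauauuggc
mmu-miR-322-5p: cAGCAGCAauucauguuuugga
mmu-miR-497a-5p: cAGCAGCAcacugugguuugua

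The last of these, miR-497a-5p, is no member but has the same seed and lies in the cluster of miR-195a. The seed was found in 10 of the 1679 mature mouse names in the RefSeq table (0.596%). Outside the seed, miR-16-5p and miR-195a-5p were the closest pair, with the same base at 12 of the 14 positions compared, and miR-15a-5p and miR-15b-5p shared 11 of 15. By contrast, miR-16-5p and miR-322-5p shared 5 of 15.

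The members come from 4 loci. Mir15a (chr14:61632075-61632096, minus strand) and Mir16-1 (chr14:61631936-61631957, minus strand) lie within the bounds of the long non-coding RNA gene Dleu2. Mir15b (chr3:69009775-69009796, plus strand) and Mir16-2 (chr3:69009918-69009939, plus strand) lie within the protein-coding gene Smc4, and both loci give the same mature miR-16-5p. Mir195a (chr11:70235062-70235082, plus strand) lies next to Mir497 (chr11:70234730-70234751, plus strand) and within no other gene of the RefSeq table. Mir322 (chrX:53054306-53054327, minus strand) lies within the long non-coding RNA gene C430049B03Rik. These are positions of the mature sequences. The array could not separate the copies of miR-16-5p.

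Levels are given as log2 values after variance-stabilising normalisation (VSN), which puts the arrays on a common scale; 1 unit is a 2-fold difference for all but the lowest signals. Levels are compared between arrays for the same miRNA and not between miRNAs. The RNA integrity number (RIN) runs from 10 for intact to 1 for fully degraded total RNA, and arrays with a RIN over 6 are called intact here, the value at which the study split its liver samples. Between 268 and 798 miRNAs were detected per array, summed signals ran from 153088 to 541770, and no spot was saturated. The tissue labels were borne out by their markers. Summed levels were 11.1 to 15.4 in liver for miR-122 against at most 7.34 elsewhere, 14.02 to 15.4 in heart for miR-1a and miR-133a against at most 8.08, and 13.1 to 14.4 in brain for miR-124 and miR-9 against at most 4.82. The liver array of 0 h at 4 °C stood apart, with 268 detected miRNAs and low levels of every member despite a RIN of 9.1. The liver slopes on time and RIN and the count of tissue calls are given with and without it. The members' other estimates that include this array are given only with it.

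All 5 members fell in liver left at RT, and under the VSN scale this was the one slide on which any of them was called. The fall came late. The RIN of these pieces was 7.1, 6.0, 4.1, 2.8, 2.7, 2.7, 2.4 and 2.3 at 0, 1, 3, 6, 12, 24, 48 and 96 h. For miR-15a-5p, the levels at these times were 9.53, 10.18, 10.24, 9.94, 9.34, 7.42, 6.13 and 6.20. Its levels at 3 and 6 h, with a RIN of 4.1 and 2.8, lay above that at 0 h, and the low values were those of 24, 48 and 96 h.

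For miR-15b-5p, closest to miR-15a-5p in sequence but from another locus, the levels were 7.20, 8.30, 8.19, 7.26, 6.96, 5.67, 4.31 and 3.52. For miR-16-5p, whose 2 loci lie beside those of miR-15a and miR-15b, they were 8.73, 9.43, 9.62, 8.92, 8.41, 7.46, 6.17 and 6.08. In both, the 3 latest pieces lay below the 5 earlier ones with no overlap on the VSN scale. On signals with no scaling between arrays, the 24 h piece lay above the 0 h piece. The signals were 94.78 against 75.88 for miR-15b-5p and 329 against 220.5 for miR-16-5p. How many other miRNAs had such a separation was not counted.

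For miR-195a-5p, the levels were 6.23, 7.38, 7.57, 6.98, 6.49, 5.16, 3.80 and 3.39. For miR-322-5p they were 4.98, 6.02, 6.11, 5.84, 5.31, 2.93, 1.37 and 1.07, the last 2 not detected by the scanner software. In these members too, the 3 latest pieces were the lowest on the VSN scale. With no scaling between arrays this still held for miR-322-5p. For miR-195a-5p, the unscaled signal at 24 h (66.13) lay above that at 0 h (38.28). Between 3 and 12 h, over which the RIN went from 4.1 to 2.7, the 5 levels changed by −1.23 to −0.80. Between 12 and 96 h, over which the RIN went from 2.7 to 2.3, they changed by −4.24 to −2.34.

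From 3 h, when the level was the highest or second highest of the slide, to 96 h, it was 16.5-fold lower for miR-15a-5p, 25.5-fold lower for miR-15b-5p, 11.6-fold lower for miR-16-5p and 18.2-fold lower for miR-195a-5p. For miR-322-5p, which was not detected at 96 h, its signal there put the level 32.9-fold lower. The size of these folds depends on the starting piece and on the scale. From 0 to 96 h they ran from 6.30 for miR-16-5p over 7.17 for miR-195a-5p and 12.8 for miR-15b-5p to 15.04 for miR-322-5p. On signals with no scaling between arrays, they were 5.18, 8.34, 3.66, 5.97 and 13.9 from 3 to 96 h for miR-15a-5p, miR-15b-5p, miR-16-5p, miR-195a-5p and miR-322-5p, and 2.08, 2.73, 1.29, 1.52 and 4.05 from 0 to 96 h. All are differences between single pieces. Over the same interval, the hepatocyte miRNA miR-122 differed by −4.30 on the log2 scale, within the range of the members (−5.04 to −3.54).

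**Figure D1:**
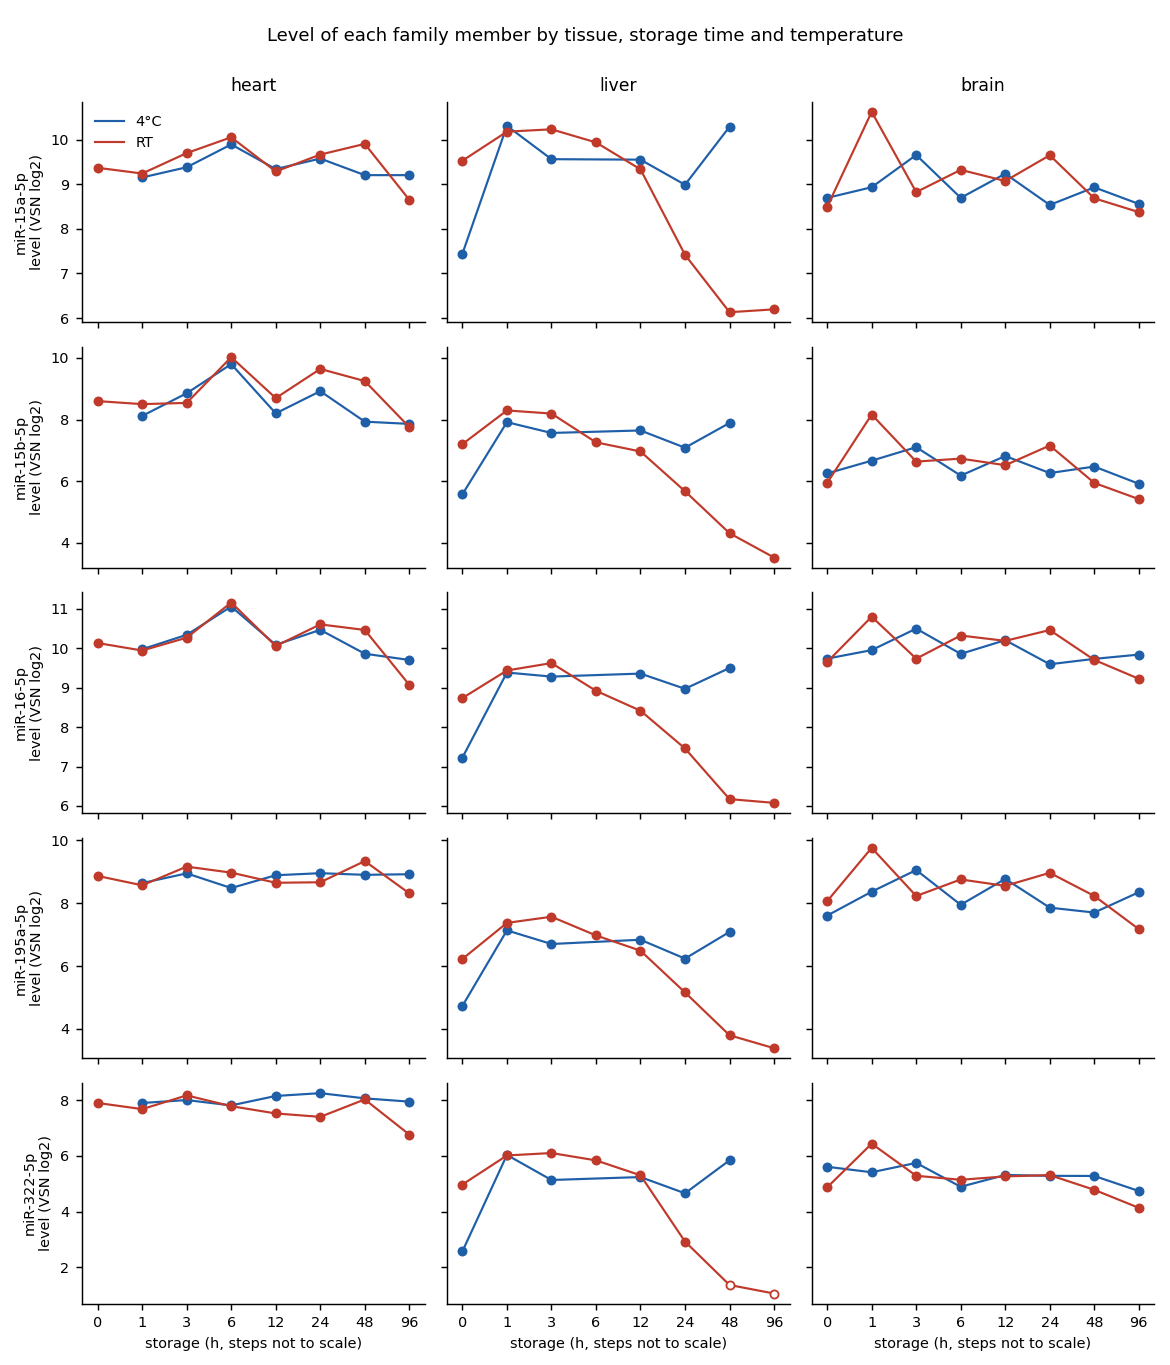
Level (log2 after VSN) of each of the 5 members against hours of storage in heart, liver and brain, with 1 point per array and separate marks for 4 °C and RT. The liver pieces of 48 and 96 h at RT lie below all other liver pieces.

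The slope of level on storage time was fitted for each of the 6 slides in 1 limma model, which gives for every miRNA a log2 change per 24 h, and a slope was called at a Benjamini-Hochberg adjusted p under 0.05 over the 815 miRNAs. In liver at RT the slopes of miR-15a-5p and miR-15b-5p were −1.11 ± 0.182 (SE; limma, adjusted p = 2.01e-06) and −1.17 ± 0.183 (adjusted p = 9.05e-07) per 24 h. For miR-16-5p the slope was −0.889 ± 0.150 (adjusted p = 3.29e-06), for miR-195a-5p −1.03 ± 0.162 (adjusted p = 9.77e-07) and for miR-322-5p −1.35 ± 0.185 (adjusted p = 8.51e-08). Thus 5 of 5 members fell, on a slide where 75.2% of all tested miRNAs were called and 34.0% were called with a negative slope. Of the 180 miRNAs that were detected on all arrays, 90 fell and 62 rose, their median slope was −0.416 per 24 h against −1.11 for the members, and 81 were at least as steep as the mildest member. Markers of single cell types moved on this slide too, with called slopes of −1.16 per 24 h for the hepatocyte miR-122, −1.57 for the endothelial miR-126a-3p and −2.04, −1.25 and −0.846 for the white cell miR-142a-3p, miR-223-3p and miR-150-5p. Of the red cell miRNAs, miR-144-3p (−1.91) and miR-451a (−1.14) fell and miR-486a-5p (0.397) rose. Their part in the fall of the members was not tested. The 96 h piece flattens these straight lines: without it, all 5 slopes were still called and ran from −2.36 to −1.61 per 24 h.

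On the other 5 slides, 0 of 25 member slopes were called by limma, and 2 of them had an unadjusted p under 0.05, those of miR-15b-5p and miR-195a-5p in brain at RT. The scale mattered here: set at the 75th percentile of the miRNAs detected on all arrays, 15 of the 30 slopes over all slides were called. Under that scaling 563 of the 815 miRNAs were called in liver at RT, 464 in heart at RT and 444 in brain at RT. At 4 °C, 0 were called in liver, 4 in heart and 2 in brain. On the VSN scale, the members' slopes in heart at RT ran from −0.260 to −0.0846 per 24 h while 52.1% of all miRNAs were called. In brain at RT they ran from −0.381 to −0.233 while 43.2% were called. Without the 96 h piece of the slide, the 425 and 352 miRNAs behind these shares became 126 in heart and 15 in brain. In heart and brain at 4 °C no miRNA at all was called (0.0% in each, with 49 and 45 of the 815 at an unadjusted p under 0.05), and the members' slopes lay between −0.265 and 0.0538. In liver at 4 °C, where 2.94% were called, the members' slopes were 0.421 to 0.608 with SEs of 0.318 to 0.391, and 0.00871 to 0.0987 without the low 0 h piece.

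The levels of single pieces show how heart and brain ran at RT. In heart at RT, miR-16-5p was at 10.13, 9.94, 10.26, 11.16, 10.05, 10.60, 10.46 and 9.07 from 0 to 96 h, with a RIN of 8.2 to 9.0 up to 24 h, 4.6 at 48 h and 2.2 at 96 h. Its lowest level was that of the 96 h piece, and the 48 h piece lay within the range of the intact ones. The same held in this slide for miR-15a-5p (9.91 at 48 h and 8.65 at 96 h) and miR-15b-5p (9.25 and 7.75), whereas miR-195a-5p at 48 h (9.34) was the highest of its slide before 8.31 at 96 h. These orders belong to the VSN scale. On signals with no scaling between arrays, the 96 h piece was the lowest of the slide for none of these members.

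In brain at RT, miR-195a-5p was at 8.07, 9.77, 8.23, 8.76, 8.55, 8.97, 8.23 and 7.18 from 0 to 96 h. The 96 h piece, with a RIN of 3.3, had the lowest level, and the 1 h piece the highest. For each of the 5 members the 96 h piece was the lowest of the brain RT slide on the VSN scale, and for 5 of 5 the 1 h piece was the highest. On signals with no scaling between arrays, the 0 h piece was the lowest for 5 of 5, and the 1 h piece was still the highest. How many other miRNAs had the same order was not counted.

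**Figure D2:**
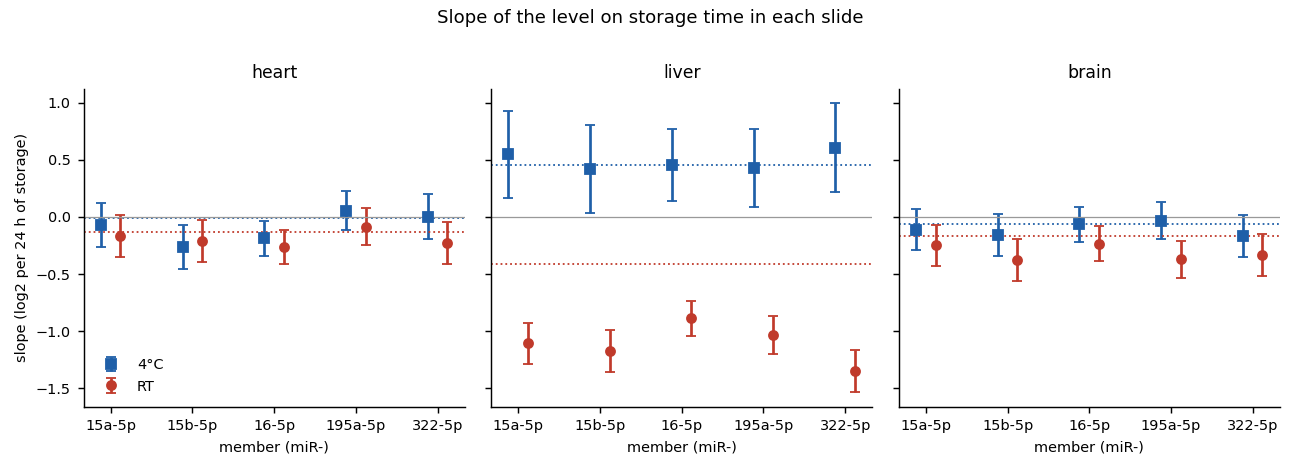
Slope of level on storage time (log2 change per 24 h, with its SE as bars) for each member on each of the 6 slides. The dotted line of each slide is the median slope of the 180 miRNAs detected on all arrays. The liver RT slopes of −1.35 to −0.889 lie apart from all others.

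Whether levels moved differently at RT and at 4 °C was tested as the difference of the slopes within a tissue. In liver the difference, RT minus 4 °C, was −1.66 ± 0.424 per 24 h for miR-15a-5p (limma, adjusted p = 0.00262), −1.59 ± 0.428 for miR-15b-5p (adjusted p = 0.00375) and −1.34 ± 0.351 for miR-16-5p (adjusted p = 0.00312). It was −1.46 ± 0.379 for miR-195a-5p (adjusted p = 0.0029) and −1.96 ± 0.432 for miR-322-5p (adjusted p = 0.000747). All 5 were called as negative, against 32.5% of all miRNAs called and 24.5% called as negative. The median over the 180 miRNAs detected on all arrays was −1.21, near the members' −1.59.

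This difference rests on few cold pieces. Without the 48 h piece at 4 °C, 0 of 5 differences were called by limma, with values of −1.76 to −1.25 and adjusted p = 0.236 to 0.437, and the count over all miRNAs went from 265 to 17. Without the low 0 h piece at 4 °C, 5 of 5 were called with smaller values of −1.40 to −0.930 (adjusted p = 0.00935 to 0.0374), and without the 96 h piece at RT, 5 of 5 with larger ones, −2.97 to −2.06. In heart, 0 of 5 differences were called (−0.230 to 0.0555 per 24 h, adjusted p = 0.529 to 0.881) against 15.3% of all miRNAs (125, and 0 without the 96 h piece at 4 °C), and in brain 0 of 5 (−0.337 to −0.138, adjusted p = 0.53 to 0.777) against 1.47%. None of these 10 had an unadjusted p under 0.05.

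The next question was whether the level followed the RIN rather than time. In liver, pieces of low RIN had both high and low levels. The 48 h piece at 4 °C had a RIN of 3.4, and its levels were 10.29 for miR-15a-5p, 7.89 for miR-15b-5p, 9.50 for miR-16-5p, 7.09 for miR-195a-5p and 5.85 for miR-322-5p. For each of the 5, that piece was the highest or second highest of its slide. The 24 h piece at RT, with a RIN of 2.7, had 7.42, 5.67, 7.46, 5.16 and 2.93, while the 12 h piece at RT had the same RIN of 2.7 and 9.34, 6.96, 8.41, 6.49 and 5.31. From 12 to 24 h the level thus changed by −2.38 to −0.96 at an equal RIN, as read from 1 array each.

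The study's split of the 14 liver arrays, 8 with a RIN of 6 or lower and 6 above, was tested with the exact 2-sided Wilcoxon-Mann-Whitney test. For miR-15a-5p the low-RIN arrays ran from 6.13 over a median of 9.64 to 10.29, and the high-RIN arrays from 7.44 over 9.54 to 10.31. For miR-16-5p the low-RIN arrays ran from 6.08 over 8.67 to 9.62, and the high-RIN arrays from 7.23 over 9.12 to 9.38. The groups overlapped for all 5 members. The differences of means, low minus high, were −0.516, −0.651, −0.624, −0.332 and −0.462 for miR-15a-5p, miR-15b-5p, miR-16-5p, miR-195a-5p and miR-322-5p, with SEs of 0.616 to 0.903. By the exact test 0 of 5 were called, and 0 had an unadjusted p under 0.05 (exact p = 0.755 for miR-322-5p and 0.852 for the other 4), against 27.7% of all miRNAs called (226, but 28 without the 1 h piece at 4 °C, 29 without the 0 h piece at RT and 51 without the 0 h piece at 4 °C). Of the 8 low-RIN arrays, 7 were of the RT slide. The negative differences belong to the VSN scale. On log2 signals with no scaling between arrays, the mean of each member was higher in the low-RIN arrays, and 0 of 5 were called. The median difference over all miRNAs was then 1.271, against 0.325 after VSN.

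**Figure D3:**
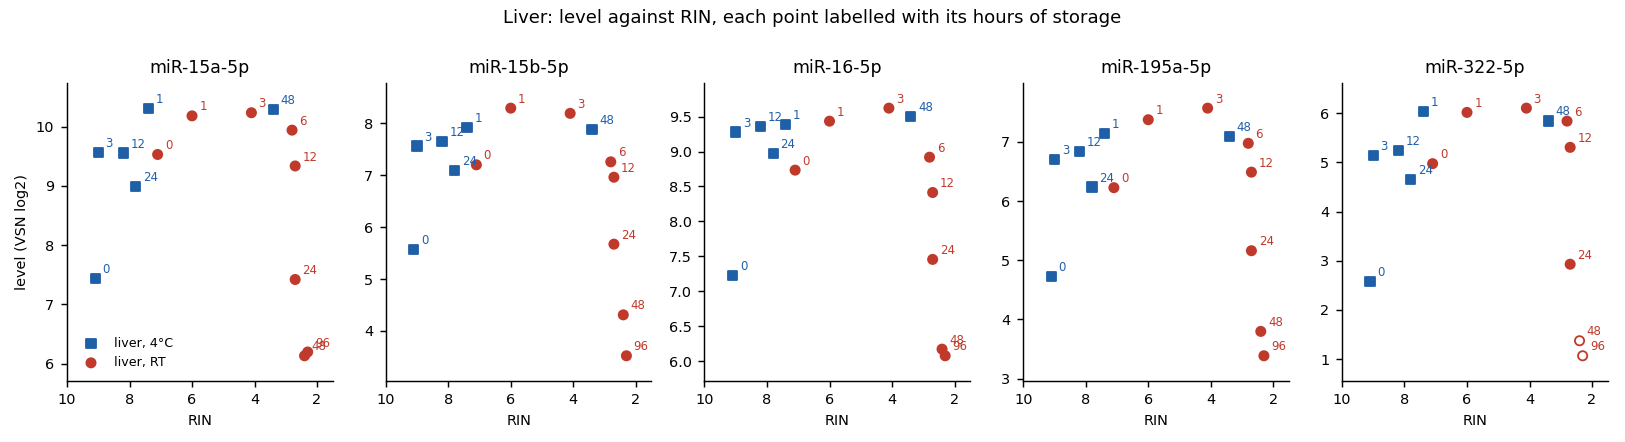
Level (log2 after VSN) of each member in the 14 liver arrays against RIN, with separate marks for 4 °C and RT. Below a RIN of 3 the levels spread over several log2 units, and the piece with a RIN of 3.4 at 4 °C lies as high as intact pieces.

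Within slides, the slope of level on RIN was 0.127 to 0.203 log2 per RIN unit in liver, 0.0227 to 0.138 in heart and 0.157 to 0.274 in brain. Of these 15 slopes limma called 0, and 0 had an unadjusted p under 0.05. After 75th percentile scaling to the miRNAs detected on all arrays 5 were called, beside 483, 372 and 341 of all miRNAs in liver, heart and brain. After normexp 6 were called, beside 447, 330 and 307. On the VSN scale, 53.6% of all miRNAs were called in liver, 48.0% in heart and 39.4% in brain (without the 96 h piece at RT, the 391 and 321 miRNAs behind the last 2 shares became 200 and 85). The liver result turned on 1 array: without the 48 h piece at 4 °C all 5 slopes were called, at 0.346 to 0.478 (adjusted p = 0.0154 to 0.0466), and without the 0 h piece at 4 °C 1 was called, that of miR-16-5p (adjusted p = 0.0482). Differences in RIN slope between tissues were called for 0 of 15 member contrasts by limma, and 0 had an unadjusted p under 0.05, against 1.35% of all miRNAs for heart minus liver, 0.0% for heart minus brain (47 at an unadjusted p under 0.05) and 1.23% for brain minus liver.

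Pooled over all 45 arrays, the study's own measure, Pearson's r with RIN, was positive and called for all 5 members, where 74.0% of all miRNAs were called and 33.7% were called as positive. It was 0.599 for miR-16-5p (adjusted p = 4.75e-05) and 0.537 for miR-195a-5p (adjusted p = 0.000355), and lower for miR-322-5p (0.441, adjusted p = 0.00439), miR-15b-5p (0.364, adjusted p = 0.0209) and miR-15a-5p (0.312, adjusted p = 0.0497). Spearman's rho was 0.459, 0.367, 0.338, 0.268 and 0.0268 in the same order, with permutation p = 0.00165, 0.0138, 0.024, 0.0749 and 0.862; the permutation p of r was 6e-05, 0.00032, 0.00264, 0.0141 and 0.034. When the 2 arrays farthest from the median RIN were dropped, r became 0.540, 0.513, 0.412, 0.302 and 0.169.

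The pooled r mixes tissues whose levels differ. Within heart (15 arrays), r was 0.146 to 0.607, within liver (14 arrays) 0.265 to 0.404 and within brain (16 arrays) 0.252 to 0.632. Within the 6 liver arrays at 4 °C it was negative, −0.593 to −0.469. With tissue as a block 3 of 5 members were called, and with slide as a block 0 of 5.

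With storage time at RT (24 arrays), r was −0.590 for miR-15a-5p (adjusted p = 0.0075), −0.480 for miR-15b-5p (adjusted p = 0.0362) and −0.467 for miR-16-5p (adjusted p = 0.0421). It was −0.395 for miR-195a-5p (adjusted p = 0.0933) and −0.437 for miR-322-5p (adjusted p = 0.0592), so that 3 of 5 were called, against 53.9% of all miRNAs and 17.7% called as negative. The permutation p of r was 0.00511, 0.0172, 0.0207, 0.0474 and 0.0313 for the 5 in that order, and Spearman's rho was −0.470, −0.352, −0.221, −0.197 and −0.318 (permutation p = 0.0216, 0.0927, 0.3, 0.356 and 0.129). When the 2 arrays farthest from the median time were dropped, r became −0.464, −0.421, −0.269, −0.258 and −0.394. Within liver alone (8 arrays) r was −0.926 to −0.874, within heart −0.713 to −0.350 and within brain −0.718 to −0.467. At 4 °C (21 arrays), r with time was −0.104 to 0.207, and 0 of 5 were called or had an unadjusted p under 0.05, against 5.28% of all miRNAs; within heart it was −0.594 to 0.420, within liver 0.369 to 0.408 and within brain −0.678 to −0.0916.

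The members differed in how their level varied between tissues. This was compared over the 33 intact arrays (13 heart, 6 liver, 14 brain) with limma and slide as a random block. Since the tissues of a temperature came from 1 mouse, a fit with storage temperature, and with it the animal, as a fixed block was added after the data were seen, and it changed none of the 15 calls. In bulk tissue, fewer cells that hold a miRNA and less of it per cell cannot be told apart.

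The level of miR-322-5p was highest in heart. It ran from 7.40 over a median of 7.90 to 8.25 in heart, from 2.58 over 5.06 to 6.04 in liver and from 4.74 over 5.29 to 6.44 in brain. No liver or brain array reached the heart range. The difference was 3.12 ± 0.293 between heart and liver (adjusted p = 4.21e-11) and 2.56 ± 0.232 between heart and brain (adjusted p = 5.48e-12), while brain and liver differed by 0.56 ± 0.290 (adjusted p = 0.0828), within their spread. Under quantile normalisation and under normexp background correction, the last of these turned to −1.12 (adjusted p = 0.000516) and −0.65 (adjusted p = 6.51e-05) by limma, called in the opposite direction.

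The level of miR-15b-5p was also highest in heart, from 7.86 over a median of 8.60 to 10.02, against 5.57 over 7.38 to 7.92 in liver and 5.92 over 6.58 to 8.16 in brain. The lowest heart pieces overlapped the highest liver and brain pieces. Heart exceeded liver by 1.58 ± 0.340 (adjusted p = 0.000215) and brain by 2.11 ± 0.270 (adjusted p = 1.7e-08), and brain minus liver was −0.53 (adjusted p = 0.156).

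Lowest in liver were miR-16-5p and miR-195a-5p. The level of miR-195a-5p ran from 8.49 over a median of 8.89 to 9.17 in heart, from 7.61 over 8.36 to 9.77 in brain and from 4.73 over 6.47 to 7.14 in liver. No liver array reached the lowest heart or brain array. It was 2.51 ± 0.275 lower in liver than in heart (adjusted p = 1.53e-09) and 2.12 ± 0.273 lower than in brain (adjusted p = 1.79e-08), and heart and brain differed by 0.39 (adjusted p = 0.115). The level of miR-16-5p ran from 9.70 over 10.13 to 11.16 in heart, from 9.59 over 9.90 to 10.80 in brain and from 7.23 over 9.12 to 9.38 in liver. Its difference was 1.46 ± 0.258 for heart minus liver (adjusted p = 1.46e-05), 1.22 ± 0.256 for brain minus liver (adjusted p = 7.66e-05) and 0.24 for heart minus brain (adjusted p = 0.298). Under quantile normalisation and normexp, brain minus liver of miR-16-5p turned to −0.29 (adjusted p = 0.0554) and −0.20 (adjusted p = 0.201), neither called by limma.

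The level of miR-15a-5p did not differ between tissues beyond the spread. Its means were 9.47 ± 0.287 (SD, n = 13) in heart, 9.23 ± 0.973 (n = 6) in liver and 9.09 ± 0.585 (n = 14) in brain. The differences were 0.23 ± 0.296 for heart minus liver, 0.38 for heart minus brain and −0.14 for brain minus liver (adjusted p = 0.514, 0.153 and 0.673 by limma). Relative to the miRNAs detected on all arrays, scaled at their 75th percentile, heart minus liver turned to −0.47 (adjusted p = 0.00677), and it was −0.94 under both quantile normalisation (adjusted p = 1.43e-06) and normexp (adjusted p = 5.31e-07).

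In all, 4 of 5 members were called between heart and liver (54.1% of all miRNAs, 44.8% as higher in heart), 2 of 5 between heart and brain (69.0%, and 21.8% as higher in heart) and 2 of 5 between brain and liver (72.6%, and 58.0% as higher in brain). The differences of miR-322-5p and miR-195a-5p between heart and liver, and those of miR-322-5p and miR-15b-5p between heart and brain, were called in 7 of 7 scalings. The median of all 815 miRNAs was itself shifted, by 0.60 for heart minus liver, −0.44 for heart minus brain and 1.12 for brain minus liver. Relative to that shift, the brain minus liver difference of miR-16-5p was about as large as that of the median miRNA, whereas that of miR-195a-5p and all 4 called heart minus liver differences were larger. Without the low liver array, 9 of the 15 tissue differences were called in place of 8.

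**Figure D4:**
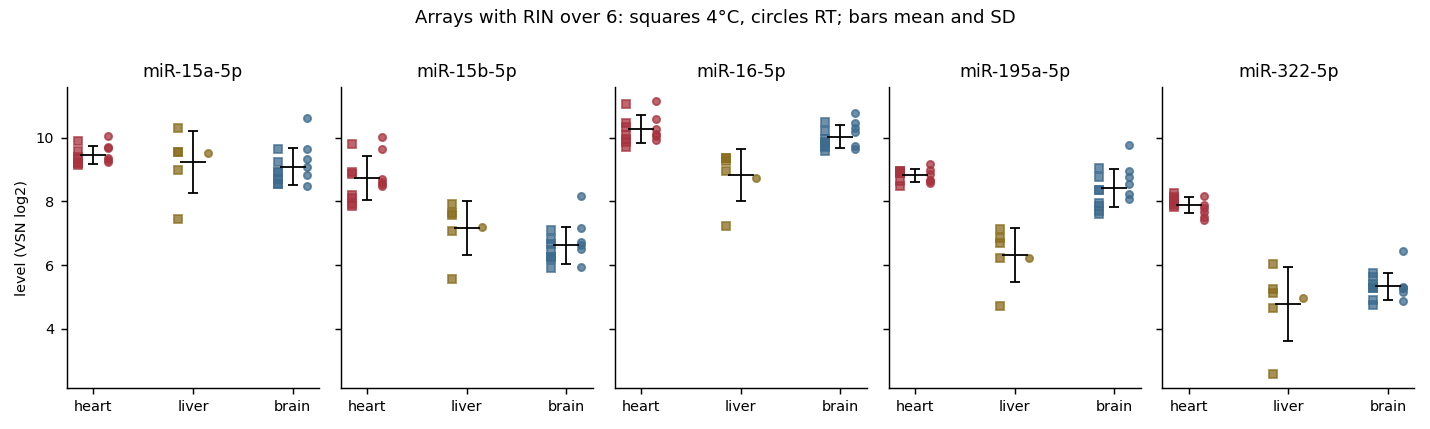
Level (log2 after VSN) of each member in the 33 intact arrays by tissue, with the mean and SD; squares are 4 °C and circles RT. All heart arrays of miR-322-5p lie above 7.4 and all liver and brain arrays below 6.5, while the 3 tissues overlap for miR-15a-5p.

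Markers of other cell types moved with tissue. The 3 red cell miRNAs miR-451a, miR-144-3p and miR-486a-5p were each called higher in heart than in liver and in brain (median difference 3.61 and 4.05). Their summed level was 12.3 to 15.1 in heart, 6.37 to 11.1 in liver and 9.06 to 11.2 in brain, and no tissue lacked them. The endothelial miR-126a-3p was at 11.2 to 12.7 in heart, 4.97 to 10.9 in liver and 8.30 to 10.9 in brain. The summed white cell level (miR-142a-3p, miR-223-3p and miR-150-5p) was 8.21 to 10.6 in heart, 3.40 to 10.4 in liver and 6.11 to 8.56 in brain. These 3 did not move together between tissues. Brain minus liver was −1.998 for miR-142a-3p and −1.885 for miR-223-3p but 3.759 for miR-150-5p, all called. Heart minus brain was 2.41 and 3.164, both called, but −0.144 for miR-150-5p, not called. Their part in the tissue differences was not tested.

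Between pieces of heart, the members differed in how closely they moved with miR-451a. The level of miR-451a ran from 12.10 to 14.94 over the 15 heart arrays, highest at 6 h of both slides (14.94 at 4 °C, 14.90 at RT) and at 24 h of RT (14.58). These were also the pieces with the highest miR-15b-5p, at 9.80, 10.02 and 9.64. The correlation with miR-451a was 0.984 for miR-15b-5p, 0.866 for miR-16-5p and 0.805 for miR-15a-5p, but 0.0473 for miR-195a-5p and −0.0621 for miR-322-5p. Spearman's rho was 0.968, 0.896, 0.836, 0.129 and −0.207 in that order. Without the 2 arrays farthest in miR-451a, r was 0.974, 0.749, 0.684, 0.210 and −0.0576. The members were not split in this way in the other tissues. With slide means subtracted, r with miR-451a was 0.968 to 0.988 over the members in liver. In brain it was 0.918 for miR-15a-5p, 0.876 for miR-15b-5p, 0.763 for miR-16-5p, 0.782 for miR-195a-5p and 0.818 for miR-322-5p.

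The order was much alike on both heart slides: r with miR-451a was 0.999 at 4 °C and 0.988 at RT for miR-15b-5p, and 0.996 and 0.898 for miR-16-5p. For miR-195a-5p it was −0.527 and 0.405. The spread of miR-15b-5p over the heart arrays was 2.27 log2 units, against 1.03 for miR-195a-5p. In the 6 h piece at 4 °C, miR-195a-5p was at its lowest of that slide (8.49) while miR-15b-5p and miR-16-5p were at their highest. The arrays share a normalisation, the values describe these pieces, and how much blood each piece held was not measured.

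**Figure D5:**
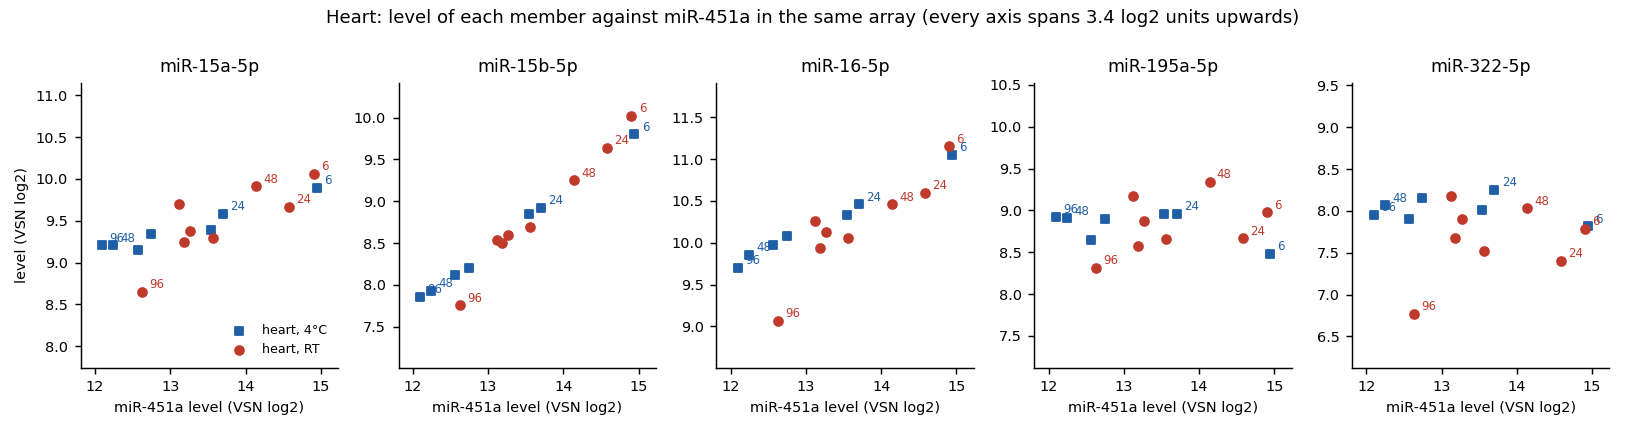
Level (log2 after VSN) of each member against that of miR-451a in the 15 heart arrays, with points labelled by hours for 6, 24, 48 and 96 h; all vertical axes span the same number of log2 units. The points of miR-15b-5p form a line (r = 0.984), and those of miR-195a-5p and miR-322-5p do not (r = 0.0473 and −0.0621).

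The pairs of members differed too. With slide means subtracted, r between members over the heart arrays was 0.960 for miR-15b-5p with miR-16-5p and 0.951 for miR-15a-5p with miR-16-5p, and 0.852 for miR-195a-5p with miR-322-5p. Pairs of miR-15a-5p, miR-15b-5p or miR-16-5p with miR-195a-5p or miR-322-5p ran from 0.162 for miR-15b-5p with miR-195a-5p, over 0.322 for miR-16-5p with miR-195a-5p, the pair closest in sequence, to 0.541 and 0.607 for miR-15a-5p with miR-195a-5p and miR-322-5p. In liver all 10 member pairs lay between 0.976 and 0.996, and in brain between 0.747 and 0.964. These values share arrays and scaling and carry no test.

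The miRNAs whose levels ran most like each member over the 45 arrays differed too. For miR-15b-5p they were the red cell miRNA miR-144-3p and miR-25-3p (r = 0.969 each), and for miR-195a-5p its cluster neighbour miR-497a-5p (0.990) and miR-24-3p (0.979). For miR-322-5p they were both arms of the endothelial miR-126a (0.986 and 0.984), for miR-16-5p miR-140-3p (0.965) and miR-497a-5p (0.954), and for miR-15a-5p miR-26b-5p (0.962) and miR-146a-5p (0.941). With slide means subtracted, miR-497a-5p remained first for miR-195a-5p (0.991) and miR-126a-5p was first for miR-322-5p (0.988). The first 2 were then miR-25-3p and miR-106b-5p for miR-15b-5p (0.977 and 0.975) and for miR-16-5p (0.982 and 0.965), and miR-148b-3p and miR-101a-3p (0.983 each) for miR-15a-5p.

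Besides the members, 5 further names have the seed in the RefSeq table, and miR-1907 was listed with them by name, its seed not checked here. Of these 6, 2 were tested and 4 (miR-195b, miR-6342, miR-6353 and miR-6419) were detected on 0 of 45 arrays. miR-497a-5p was detected on all 45 arrays. In liver at RT it was at 5.93, 7.04, 7.22, 6.83, 6.23, 4.80, 3.04 and 3.11 from 0 to 96 h. Its slope was −1.07 per 24 h (limma, adjusted p = 8.4e-07), and it was higher by 2.10 in heart and by 2.01 in brain than in liver. The other tested one, miR-1907, was detected on 14 arrays (5 of heart, 3 of liver and 6 of brain). At RT it was detected on 4 of 8 arrays of heart, 3 of 8 of liver and 5 of 8 of brain. It thus passed the filter of at least 5 arrays only through RT arrays, where it was high. Its fitted slope was positive on the 3 RT slides (0.767 in liver, 1.16 in heart and 1.16 per 24 h in brain). These slopes describe the arrays and test no link to storage.

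Each member hairpin also gives a second mature miRNA from its other arm, here the -3p arm. Of 6 listed, miR-15a-3p, miR-15b-3p, miR-16-1-3p and miR-16-2-3p were detected on 2 to 4 arrays and were not tested. miR-195a-3p was detected on 10 of the 12 arrays with a RIN of 6 or lower and on 1 of the 33 intact arrays. In liver at RT its level was 1.06, 1.66, 3.43, 3.78, 3.61, 4.29, 5.29 and 4.57 from 0 to 96 h, where the arm named as the member, miR-195a-5p, went from 6.23 to 3.39. It was not detected at 0 and 1 h and was detected in the 6 later pieces. Its slope there was 0.666 per 24 h and its r with RIN over the 45 arrays −0.734, both opposite in sign to those of the -5p arm. It passed the filter of at least 5 arrays only through low-RIN arrays, where it was high. These 2 values therefore describe the arrays and test no link to RIN or storage. In the liver piece of 48 h at 4 °C it was at 3.27, with miR-195a-5p at 7.09. By contrast, miR-322-3p was detected on 9 arrays, all of heart: 8 of the 33 intact ones and 1 of the 12 with a RIN of 6 or lower.

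Of 13 neighbours listed from the members' clusters, 4 were tested. Besides miR-497a-5p, these were 3 of the Mir322 cluster. miR-503-5p was detected on 12 arrays, all of heart. miR-450a-5p was detected on all 15 heart arrays, on 6 of liver and on 1 of brain, and was higher in heart than in liver by 2.07 (adjusted p = 1.6e-12) and than in brain by 2.39 (adjusted p = 1.15e-17). The third, miR-450a-2-3p, was detected on 14 heart, 7 liver and 15 brain arrays. In the liver contrast of RT against 4 °C, the fitted difference was negative and called for 3 of the 4, of which miR-503-5p was detected on no liver array, and miR-450a-2-3p rose (1.197 per 24 h, adjusted p = 0.00173).

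Each member was read by 2 probes of 15 spots each, whose signals correlated at 0.9918 to 0.9995 over the 45 arrays. For miR-15a-5p the log2 ratio of the 2 probes stayed between 0.087 and 0.157 in all tissues and in late RT pieces. For miR-15b-5p it was 0.861 ± 0.080 (SD) in intact heart, 0.866 in liver and 0.819 in brain, and 1.18 ± 0.406 in liver of 24 to 96 h, 1.104 ± 0.064 in heart and 1.04 in brain of 48 to 96 h at RT. For miR-322-5p it was 0.481, 0.465 and 0.569 in intact heart, liver and brain and 0.645, 0.611 and 1.08 in the late RT pieces. In late liver, miR-322-5p was detected in 1 of the 3 pieces. The ratio of these 2 members was thus higher in the late pieces of all 3 tissues. So was that of miR-15a-5p, by less: 0.087, 0.117 and 0.127 in intact heart, liver and brain and 0.111, 0.133 and 0.157 in the late pieces. For miR-16-5p it went from 1.186, 1.508 and 1.361 in intact heart, liver and brain to 1.277, 1.387 and 1.343 in the late pieces, and for miR-195a-5p from 0.784, 1.101 and 0.932 to 0.768, 0.776 and 0.918, lower in late liver. None of these differences was tested.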

How the data were processed

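RNA was labelled with cyanine 3 and hybridised to 1-colour Agilent miRNA arrays, which the authors read with Agilent Feature Extraction 10.10.1.1. The deposited scanner files hold signal intensity per probe and gene, background subtracted by that software. The authors also deposited a table of VSN log2 values, from which the version computed here over 46 arrays differed by at most 0.0104. Here, the intensity of each miRNA was the total gene signal, or the summed probe signals where it was called not detected. These intensities were normalised by VSN over 45 arrays with negative values kept, and all 1881 miRNAs entered this step. Intensities were set to at least 0.5 only in alternative scalings and for the log2 signals of single probes. The heart array of 0 h at 4 °C, set aside in the methods, was left out. Tests ran over the 815 miRNAs detected on at least 5 arrays, with calls at a Benjamini-Hochberg adjusted p under 0.05: Pearson's r with RIN or time and the exact Wilcoxon-Mann-Whitney test after the methods, and limma 3.58.1 in R 4.3.3 for tissue contrasts (slide as random block, correlation 0.0197), RIN slopes and time slopes (slide as fixed block). Permutation p-values used 100000 draws, in scipy 1.17.1. The number of arrays limits the precision. Named were the 5 members, per member the 2 most alike miRNAs, and detected members of lists of same-seed, other-arm, cluster and marker miRNAs; the members and lists were chosen with earlier results of these data known. Alternatives were other scalings, background correction, detection filters, adjustment, blocks, time codings, leaving out each array and, added after seeing the data, the animal as a block in the tissue contrasts. The fits were run on simulated data with known changes and independent noise, whose spread was that of intact heart and brain arrays. The spread of degraded liver and shifts between arrays were not simulated. The labels' 12 h is 14 h in the methods.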

Additional observations from a re-analysis of the deposited data

Results flagged for a closer look

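The liver piece of 0 h at 4 °C was the lowest of its 6 arrays by a wide gap for 3 members: the gap to the next array made up 0.646 of the whole range for miR-15b-5p, 0.767 for miR-16-5p and 0.626 for miR-195a-5p, each above Dixon's 95% value of 0.625 for 6 arrays. Of 30 sets of arrays examined (5 members on 6 slides) 3 stood out, and chance alone marks about 1 in 20. The levels of that piece were 5.57, 7.23 and 4.73, with 268 miRNAs detected and a RIN of 9.1.

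In liver, the time slope differed between RT and 4 °C for every member, by −1.66 per 24 h for miR-15a-5p, −1.59 for miR-15b-5p, −1.34 for miR-16-5p, −1.46 for miR-195a-5p and −1.96 for miR-322-5p (limma contrast of slopes). The animal and slide cannot be told apart from the temperature. Without the 48 h piece at 4 °C, limma called 0 of the 5 (adjusted p = 0.236 to 0.437). The median over the 180 miRNAs detected on all arrays was −1.21.

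The heart array of 0 h at 4 °C, which entered no comparison, detected 5 of 5 members at levels of 5.54, 5.37, 6.34, 5.18 and 4.15 for miR-15a-5p, miR-15b-5p, miR-16-5p, miR-195a-5p and miR-322-5p, below the lowest of the other 15 heart arrays in each case, with 215 miRNAs detected and a RIN of 8.8.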

How the results depend on the processing

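Of single member values under alternatives other than leaving out an array, 947 stayed on their side of the threshold, 54 passed it and 55 lost it. A further 9, each called as reported or under the alternative, turned sign. Sign changes of values called in neither are not among these 9. Those that turned were brain minus liver of miR-16-5p (−0.29 quantile, −0.20 normexp) and miR-322-5p (−1.12, −0.65, both called). The others were heart minus liver of miR-15a-5p (−0.47 at the 75th percentile of miRNAs detected on all arrays, −0.94 normexp, −0.94 quantile), and its r with RIN (−0.0622 without scaling, −0.267 over the intact arrays). Called members for r with RIN, 5 of 5, were 1 with Bonferroni, 3 with Spearman's rho, 3 with a tissue block and 0 without scaling, over intact arrays or with a slide block. For r with time at RT, 3 of 5, they were 5 at either 75th percentile, with quantile normalisation or a tissue block, 1 with Spearman's rho or log2 hours, and 0 with Bonferroni or without scaling; at 4 °C they stayed 0. RIN slopes within tissue, 0 of 15, became 1 at the 75th percentile of all miRNAs, 5 at that of miRNAs detected on all arrays, 6 with normexp, 5 with quantile and 2 with tissue in place of slide, and 0 to 5 when leaving out 1 array. Slope differences between tissues stayed 0. For liver low against high RIN, 0 of 5, 1 was called at the 75th percentile of miRNAs detected on all arrays and 0 to 0 when leaving out 1 array. RT minus 4 °C, 5 of 15, gave 0 with Bonferroni, 3 without scaling, 3 with normexp and 0 to 5 when leaving out 1 array. Time slopes by slide, 5 of 30, gave 14 and 15 at the 75th percentile of all miRNAs and of those detected on all arrays, 9 with normexp, 11 with quantile and 5 to 7 when leaving out 1 array. Tissue differences, 8 of 15, gave 14 at the 75th percentile of miRNAs detected on all arrays. The blocked fit of tissue differences, with storage temperature and so the animal as the block, called 8 of 15, the same as without it; it and leaving out the low liver array were chosen after seeing the data. The time slopes by slide come from the limma fit of RT minus 4 °C and were not planned as a result of their own. The causes were not tested.

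Counts of called miRNAs moved most for r with RIN (603, range 0 to 674), liver low against high RIN (226, 0 to 332), RT minus 4 °C in liver (265, 65 to 484; 17 to 374 when leaving out 1 array), heart (125, 4 to 270) and brain (12, 0 to 85), time at RT (439, 100 to 636) and at 4 °C (43, 8 to 96), RIN slopes in heart (391, 61 to 458), liver (437, 2 to 573) and brain (321, 49 to 400), RIN slope differences (11, 4 to 49; 0, 0 to 120; 10, 5 to 123), and tissue (441, 199 to 475; 562, 345 to 644; 592, 392 to 680). By slide they were 613 (334 to 692) for liver at RT, 425 (97 to 501) for heart at RT, 352 (50 to 476) for brain at RT, 24 (0 to 95) for liver at 4 °C, 0 (0 to 19) for heart at 4 °C and 0 (0 to 19) for brain at 4 °C. When leaving out 1 array, the counts ran from 559 to 630 for liver at RT and 15 to 417 for brain at RT (lowest without the 96 h piece), 0 to 61 for liver, 0 to 6 for heart and 0 to 1 for brain at 4 °C, 28 to 332 for liver low against high RIN, 0 to 168 for RT minus 4 °C in heart and 0 to 16 in brain, 200 to 409, 327 to 628 and 85 to 362 for RIN slopes in heart, liver and brain, and 0 to 129, 0 to 1 and 0 to 98 for the RIN slope differences heart minus liver, heart minus brain and brain minus liver. For heart at RT the lowest was 126, without the 96 h piece. The share of positive calls ran by scaling from 51.2 to 92.4% for heart minus liver (82.8% as reported), 53.0 to 93.6% for brain minus liver (79.9%), 25.3 to 54.2% for heart minus brain (31.7%), 50.5 to 98.1% for time at RT (67.2%), 49.5 to 70.9% for liver at RT by slide (54.8%), 21.7 to 60.7% for RT minus 4 °C in liver (24.5%), 18.5 to 48.7% for RIN (45.6%) and 39.3 to 100% for liver low against high RIN (89.4%). No paired analysis was possible because every label gives the same replicate number, so that pieces could be paired by animal alone, as in the blocked fit above. Near and below the detection limit, as for miR-322-5p in late liver, array signal bounds what can be read.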
